A study of Homo sapiens with 4 samples.

Results

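The EGF receptor ligand, receptor and inhibitor genes described here are 10 of the 55536 genes in the deposited table. They are the ligand genes AREG, EREG, TGFA, HBEGF, BTC and EPGN, the receptor genes EGFR, ERBB2 and ERBB3, and ERRFI1, which encodes a feedback inhibitor of these receptors. They were matched by gene symbol, and each symbol matched 1 row. They were chosen by their place in this receptor system and by their measured difference between TYMP and NC in these same libraries, known from earlier results. The members' own differences between the groups are therefore given as a description with their standard errors and without p-values. RNA came from HaCaT, an established, spontaneously immortalized line of human keratinocytes. There were 2 libraries of HaCaT cells carrying an overexpression lentivirus for TYMP, the gene of thymidine phosphorylase, and 2 libraries labelled NC. The labels neither spell out NC nor name the vector, its promoter or the number of clones, and cells of both groups were harvested at 48 hours. Nothing in them tells whether the libraries are separate cultures. The spread within a group, and with it every p-value below, can therefore be technical.

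Ligands of this family are made as membrane-anchored precursors and are released by metalloproteases, chiefly ADAM17. The released peptide binds EGFR, which pairs with itself or with ERBB2 or ERBB3 and signals through the RAS and ERK kinases. ERBB2 has no known ligand of its own, and ERBB3, which binds neuregulins, has little kinase activity and signals through its partner. In keratinocytes the loop is largely autocrine: the cells make amphiregulin (AREG), epiregulin (EREG), transforming growth factor alpha (TGFA) and heparin-binding EGF-like growth factor (HBEGF) themselves, and respond to them by growth and migration. Activation of the receptor is known to raise transcription of several of its own ligands and of ERRFI1.

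Of the 6 ligand genes, 4 lie near each other on chromosome 4 in the order EPGN, EREG, AREG and BTC. AREG and EREG were lower in the TYMP libraries, while EPGN and BTC, with few reads, overlapped between the groups. The bases upstream of these 4 starts are printed for comparison. The windows are the 250 bases before the RefSeq start on GRCh38.p14, 5′ to 3′ on the strand of the gene. They are AREG at chr4:74444886-74445135 on the plus strand, EREG at chr4:74364895-74365144 on the plus strand, EPGN at chr4:74308220-74308469 on the plus strand and BTC at chr4:74794524-74794773 on the minus strand. Capitals mark matches, on either strand, to 5 motifs. They are the cAMP response element TGACGTCA, the AP-1 pattern TGANTCA (N is any base), the TEAD site GGAATG, the TATA box TATAAA and the CCAAT box.
AREG: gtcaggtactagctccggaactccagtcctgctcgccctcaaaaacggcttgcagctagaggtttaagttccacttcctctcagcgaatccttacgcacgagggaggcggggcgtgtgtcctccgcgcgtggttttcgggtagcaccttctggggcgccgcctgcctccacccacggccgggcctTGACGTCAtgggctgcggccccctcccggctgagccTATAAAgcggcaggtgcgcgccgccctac
EREG: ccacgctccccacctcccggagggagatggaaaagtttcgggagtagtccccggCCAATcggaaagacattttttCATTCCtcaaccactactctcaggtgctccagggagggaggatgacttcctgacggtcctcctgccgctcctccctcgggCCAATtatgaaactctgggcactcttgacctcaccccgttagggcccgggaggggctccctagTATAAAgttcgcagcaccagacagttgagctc
EPGN: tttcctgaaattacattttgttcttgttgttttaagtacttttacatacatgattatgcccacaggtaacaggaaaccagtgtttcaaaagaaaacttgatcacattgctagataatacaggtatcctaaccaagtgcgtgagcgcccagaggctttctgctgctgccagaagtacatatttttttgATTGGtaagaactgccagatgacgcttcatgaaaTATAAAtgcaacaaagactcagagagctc
BTC: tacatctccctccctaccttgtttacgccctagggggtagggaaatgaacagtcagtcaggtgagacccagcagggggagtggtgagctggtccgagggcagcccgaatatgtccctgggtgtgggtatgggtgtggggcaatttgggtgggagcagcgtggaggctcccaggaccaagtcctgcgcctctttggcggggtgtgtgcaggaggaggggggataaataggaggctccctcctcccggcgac
The AREG window held 1 full cAMP response element, the letters bound by CREB and ATF factors, at bases -65 to -58 from the start. These letters stood in 1.65% of 35116 upstream windows of the same length. The windows of AREG, EREG and EPGN each held a TATA box, which 10.7% of windows did. EREG also held 2 CCAAT boxes, a motif of 32% of windows, and 1 TEAD site on the opposite strand, a motif of 11.9% of windows. EPGN held 1 CCAAT box on the opposite strand. No match overlapped another in these windows, and BTC held none of the 5 motifs. The G and C content was 65.2% for AREG, 58% for EREG, 38% for EPGN and 62% for BTC. Of the 10 genes, 9 had an entry, and the missing one was ERBB3. None of the 5 motifs was in the windows of TGFA and HBEGF. The AP-1 pattern with its open middle base was in 6.57% of windows. It had 1 match in the window of ERBB2, TGATTCA. Before the second listed start of EGFR it had 2 matches, TGAGTCA and TGACTCA.

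Library totals ran between 16209663 and 17000821 reads in genes. Mitochondrially encoded genes took between 4.24% and 5.09% of counts. TYMP had 1221 and 1100 reads in the TYMP libraries, against 281 and 264 in the NC libraries, a 4.30-fold rise (edgeR quasi-likelihood test, adjusted p = 1.47e-06). Its exons share 20.7% of their bases with SCO2 and ODF3B. All 10 keratinocyte markers averaged above 1 CPM, reads scaled to a common library size. Of these, KRT5, KRT14 and DSG3 were called higher in TYMP and the others were not called. Among all tested genes 2.09% were called higher. KRT17 and ITGB4 hardly differed, with log2 fold changes of -0.02 and 0.0018. KRT5 and KRT14 gave the most to the summed level of the list. That level was 13645 and 12937 CPM in TYMP against 11199.8 and 10167.5 CPM in NC. Whether that difference has a part in the ligand values was not tested. Summed markers of melanocytes, fibroblasts, endothelial and immune cells lay between 1.49 and 8.88 CPM in every library, with TYR, COL3A1 and LYZ at 0 reads in all 4.

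**Figure D1:**
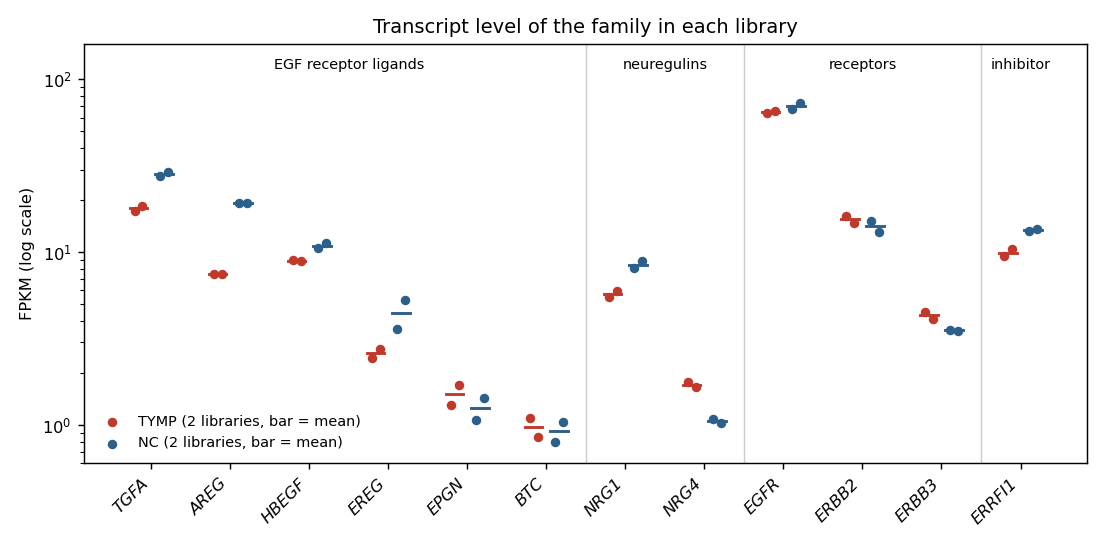
Transcript level, in FPKM on a log scale, of the ligands, 2 neuregulins, receptors and ERRFI1 in each library. Points are single libraries and bars are means of 2 libraries, with TYMP left of NC. AREG was near 7.47 FPKM in TYMP and 19.2 FPKM in NC, while EGFR was the highest of all in both groups. The authors' FPKM implies 21372 bases for NRG1, against 11328 in GENCODE 29, so its height relative to other genes depends on the annotation.

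Levels between genes are compared in FPKM, which divides reads by gene length and library total. EGFR was the most abundant of the 10, at 64.7 ± 0.629 FPKM in TYMP and 69.9 ± 3.59 FPKM in NC (SD, n = 2 each), and ranked 493 of 14380 tested genes by its mean over the 4 libraries. In TYMP the order that followed was TGFA, ERBB2, ERRFI1, HBEGF, AREG, ERBB3, EREG, EPGN and BTC. In NC it was TGFA, AREG, ERBB2, ERRFI1, HBEGF, EREG, ERBB3, EPGN and BTC. AREG thus stood below ERBB2, ERRFI1 and HBEGF in TYMP and above all 3 in NC. Of neighbours in these orders, ERBB2 and ERRFI1 overlapped in NC. The order rests on the gene lengths implied by the authors' FPKM, which for EPGN, EGFR and ERBB3 are longer than those of GENCODE 29. With GENCODE 29 lengths EPGN stood above EREG in TYMP, at 2.38 and 3.10 FPKM against 2.45 and 2.75 FPKM, and the libraries of the pair overlapped. In NC, ERBB3 then stood above EREG, at 4.61 and 4.52 FPKM against 3.59 and 5.25 FPKM, again with overlap. The places of AREG, TGFA and EGFR were the same with both sets of lengths. The lowest, BTC, averaged 0.975 FPKM in TYMP and 0.921 FPKM in NC.

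AREG encodes amphiregulin, a ligand of EGFR known as an autocrine growth factor of keratinocytes. It had 198 and 206 reads in the TYMP libraries, against 535 and 525 in the NC libraries. The groups were far apart and the libraries of each group close together. Scaled by TMM, AREG averaged 12.2 ± 0.11 CPM in TYMP and 31.8 ± 0.0957 CPM in NC (SD, n = 2 each). This was 2.60-fold lower, or -1.38 as a log2 fold change (SE 0.129), the widest difference among the 10 genes. In bulk RNA, fewer cells expressing a gene and less RNA per cell cannot be told apart.

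EREG encodes epiregulin, which binds EGFR and ERBB4 and lies next to AREG. EREG had 227 and 263 reads in the TYMP libraries, against 349 and 499 in the NC libraries. Both TYMP libraries were below both NC libraries, as in 21.8% of tested genes, and the NC libraries were spread the most. EREG averaged 14.8 ± 0.991 CPM in TYMP and 25.4 ± 6.62 CPM in NC, 1.72-fold lower (log2 fold change -0.78, SE 0.172). Without NC replicate 2, the higher of the pair, its log2 fold change was -0.49.

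TGFA encodes transforming growth factor alpha, the most abundant ligand transcript here. It had 1385 and 1528 reads in the TYMP libraries, against 2319 and 2369 in the NC libraries, with no overlap. Among all tested genes 43.6% had no overlap, in either direction. TGFA averaged 88.0 ± 2.85 CPM in TYMP and 140.5 ± 3.57 CPM in NC, 1.6-fold lower (log2 fold change -0.68, SE 0.0856). HBEGF, whose precursor also serves as the diphtheria toxin receptor, had 435 and 443 reads in TYMP against 534 and 561 in NC. Its libraries did not overlap either, but the difference was smaller, at 26.5 ± 0.641 CPM in TYMP and 32.8 ± 1.48 CPM in NC (log2 fold change -0.31, SE 0.117).

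BTC and EPGN, which encode betacellulin and epigen, were scarce and their groups overlapped. BTC had 47 and 38 reads in TYMP against 36 and 46 in NC (log2 fold change 0.07, SE 0.309). EPGN had 70 and 94 reads in TYMP against 60 and 79 in NC (log2 fold change 0.25, SE 0.252). With 1 library left out, the EPGN value lay between 0.05 and 0.46, lowest without TYMP replicate 2 or NC replicate 1. Counts this low do not resolve small differences. The sign of BTC turned without TYMP replicate 1 (-0.13) and without NC replicate 1 (-0.11).

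**Figure D2:**
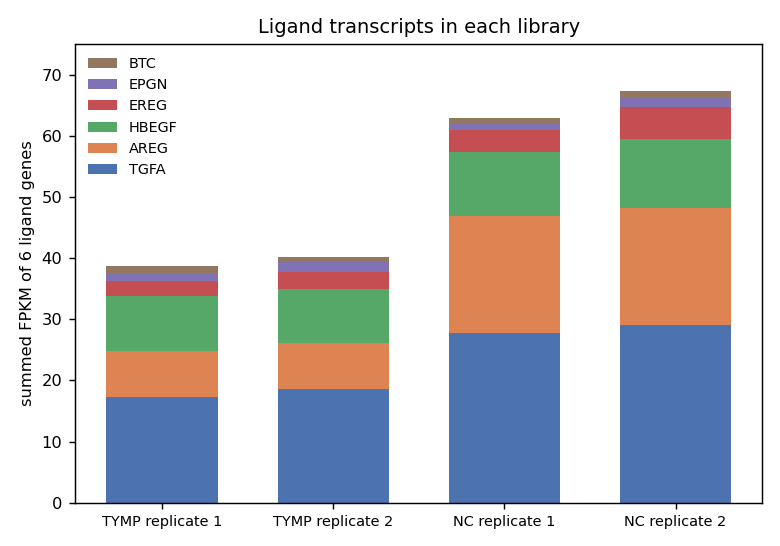
Summed FPKM of the 6 ligand genes in each library, stacked by gene, with the TYMP libraries left of the NC libraries. The sums were 38.6 and 40.2 FPKM in TYMP and 62.9 and 67.3 FPKM in NC, and the AREG and TGFA segments were shorter in TYMP.

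Together the 6 ligand genes reached 38.6 and 40.2 FPKM in the TYMP libraries, against 62.9 and 67.3 FPKM in the NC libraries. The mix of ligands differed along with the sum. AREG made up 18.9% ± 0.435 of ligand FPKM in TYMP and 29.5% ± 1.33 in NC (SD, n = 2 each). HBEGF made up 22.6% ± 0.861 in TYMP and 16.7% ± 0.0545 in NC. TGFA held the largest share in every library, 45.6% ± 0.844 in TYMP and 43.6% ± 0.721 in NC, and its share of raw counts differed the other way, by -0.27 percentage points. EREG held 6.59% ± 0.350 in TYMP and 6.76% ± 1.48 in NC, a difference smaller than the spread of the NC libraries. EPGN held 3.81% in TYMP and 1.92% in NC, but 6.77% and 3.47% with GENCODE 29 exon lengths, since the authors' FPKM implies 3299 bases for EPGN and that annotation has 1814. The ratio of AREG to HBEGF in FPKM was 0.838 ± 0.0127 in TYMP and 1.76 ± 0.0850 in NC.

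None of the 3 receptor genes was called with group as the only term. Over all tested genes 3.32% were called, so this count is near the background. With the replicate number as a block, which called 14.1% of all tested genes, EGFR was called lower and ERBB3 higher. EGFR had 16591 and 17360 reads in the TYMP libraries, against 18255 and 19189 in the NC libraries. Its TYMP libraries were below its NC libraries by a small margin, at 1026 ± 5.14 CPM in TYMP and 1122 ± 51.2 CPM in NC (log2 fold change -0.13, SE 0.0739). ERBB2 had 2704 and 2542 reads in TYMP against 2656 and 2248 in NC, and its groups overlapped (log2 fold change 0.11, SE 0.0970). With 1 library left out, the ERBB2 value lay between 0.0019 without NC replicate 2 and 0.23 without NC replicate 1. ERBB3 had 854 and 808 reads in TYMP against 708 and 679 in NC. It was the only gene of the 10 with both TYMP libraries above both NC libraries, at 50.3 ± 3.83 CPM in TYMP and 41.6 ± 0.80 CPM in NC (log2 fold change 0.27, SE 0.11). The same was so for 21.8% of tested genes, and 21.8% had both TYMP libraries below both NC libraries. The EGFR to ERBB3 ratio in FPKM was 15.0 ± 1.07 in TYMP and 19.9 ± 1.29 in NC. Antisense EGFR-AS1, whose exons cover 1.49% of the exon bases of EGFR, had 31 and 30 reads in TYMP against 20 and 37 in NC. For ERBB2, 7.41% of exon bases are shared with PGAP3 and MIEN1 on the other strand. Such reads cannot be told apart, since the sources used here give no strand setting for the counts.

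ERRFI1, also called MIG6, encodes a protein that binds the kinase domain of EGFR family receptors and blocks it, and it is itself induced by EGF. It had 641 and 727 reads in the TYMP libraries, against 946 and 949 in the NC libraries, with no overlap. Among all tested genes 21.8% also had both TYMP libraries below both NC libraries. ERRFI1 averaged 41.3 ± 2.15 CPM in TYMP and 56.8 ± 0.714 CPM in NC, 1.37-fold lower (log2 fold change -0.46, SE 0.106). Its FPKM relative to EGFR was 0.154 ± 0.00875 in TYMP and 0.193 ± 0.00638 in NC.

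**Figure D3:**
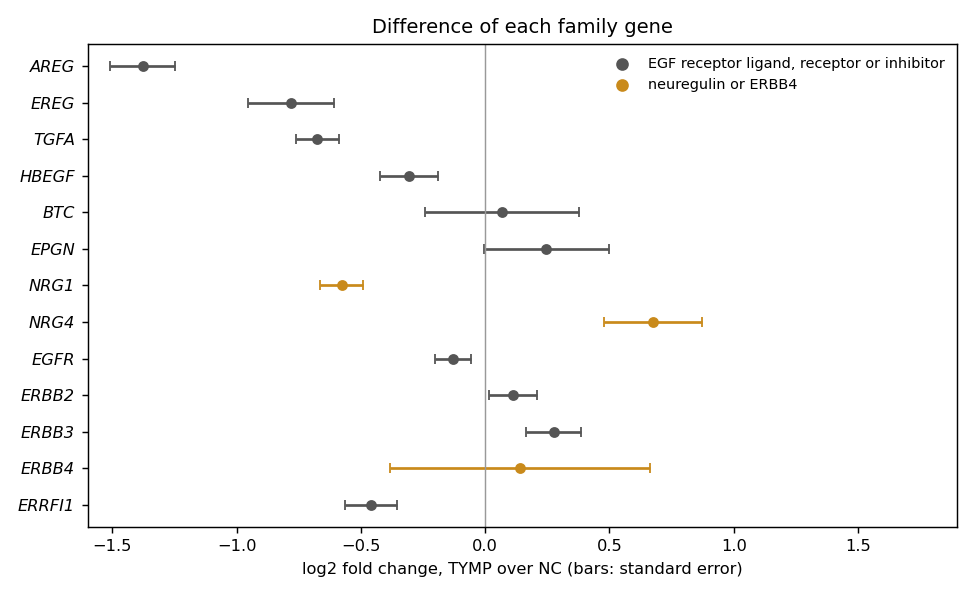
Log2 fold change of each gene, TYMP over NC, with its standard error, from the fit to all genes. AREG at -1.38 lies farthest from 0, and EGFR, ERBB2 and ERBB3 lie between -0.13 and 0.27.

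All 10 genes passed the filter on low counts. AREG, EREG, TGFA and ERRFI1 were called lower at an adjusted p under 0.05 over all tested genes, and 0 of the 10 were called higher. Of all 14380 tested genes 3.32% were called, 1.23% lower and 2.09% higher. In 6 of the 10 genes both TYMP libraries were below both NC libraries, and in 1 both were above, where 21.8% of tested genes were below and 21.8% above. The list was chosen with these calls known, so nothing is read from the counts. The same holds for calls kept or lost below, since the alternatives refit the same libraries. The calls of AREG and TGFA were kept in all 12 alternatives listed below. That of EREG was lost without NC replicate 2, and that of ERRFI1 without TYMP replicate 1 or TYMP replicate 2. With the replicate number as a block, which called 14.1% of all tested genes, HBEGF and EGFR were also called lower and ERBB3 higher. On log2 FPKM, AREG and TGFA were the members called.

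**Figure D4:**
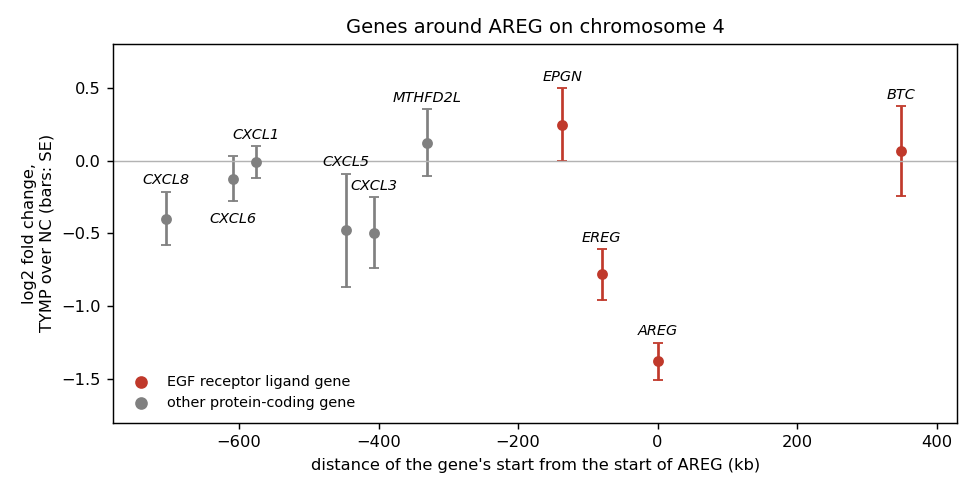
Log2 fold change, TYMP over NC with its standard error, of tested protein-coding genes against the distance of their start from the start of AREG in kb. EREG and AREG are the lowest points, at -0.78 and -1.38, while EPGN and BTC on either side lie above 0.

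Of the 4 ligand genes on chromosome 4, AREG and EREG were lower in TYMP, while the groups of EPGN and BTC overlapped at low counts. Whether these genes differ from each other was not tested. By GENCODE 29 on GRCh38, AREG lies at chr4:74445134-74455009 and EREG at chr4:74365143-74388751, whose start is at -79.991 kb from that of AREG. The start of EPGN is at -136.661 kb and that of BTC, taken at its annotated end on the opposite strand, at 349.552 kb. BTC runs on the opposite strand. MTHFD2L, the next gene beyond EPGN, had 177 and 184 reads in TYMP against 121 and 213 in NC (log2 fold change 0.12, SE 0.230). PARM1, beyond BTC, had 1 and 2 reads in TYMP against 1 and 2 in NC and was not tested. The chemokine genes farther out had log2 fold changes between -0.49 for CXCL3 and -0.01 for CXCL1, and 0 of the 5 tested passed the threshold. Of all tested genes 3.32% were called, so this count is near the background and is no result about them. Within the stretch from CXCL8 to PARM1, the genes called lower were EREG and AREG. Without NC replicate 2 the log2 fold change of EREG was -0.49. With all libraries CXCL3 was at -0.49 and CXCL5 at -0.48. CXCL5 had 33 and 26 reads in TYMP against 27 and 56 in NC, so its value also depends on NC replicate 2. No values without that library are given for the chemokine genes, so the contrast of EREG with these neighbours was not tested.

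The family also holds EGF, the neuregulins and ERBB4. NRG1, a neuregulin that binds ERBB3 and ERBB4, had 1898 and 2139 reads in the TYMP libraries, against 2928 and 3141 in the NC libraries. The groups did not overlap, as in 43.6% of tested genes. NRG1 fell to 121.9 ± 5.79 CPM in TYMP, against 181.9 ± 10.9 CPM in NC, 1.49-fold lower (log2 fold change -0.58, SE 0.0864, edgeR adjusted p = 0.00203). On log2 FPKM with limma its adjusted p was 0.0595 with a pseudocount of 1, and with edgeR and DESeq2 it stayed under 0.05 in the other 10 alternatives. NRG4, an ERBB4 ligand, had 144 and 139 reads in TYMP against 93 and 86 in NC (log2 fold change 0.67, SE 0.197, adjusted p = 0.097). Its exons share 38.1% of their bases with FBXO22 on the other strand. NRG2 had 13 and 12 reads in TYMP against 4 and 0 in NC, and was not called (adjusted p = 0.171). ERBB4 had 10 and 23 reads in TYMP against 11 and 19 in NC. EGF itself had 0 and 2 reads in TYMP against 0 and 0 in NC, and NRG3 had 1 and 0 against 0 and 1. Levels of EGF and NRG3 were not detectable at this depth.

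Genes that act around the ligands and receptors were taken from lists of known pathway members, and 0 of 14 tested genes of ligand shedding and delivery passed the test. Over all tested genes 3.32% were called and 1.23% were called lower, so counts of 0 or 1 in lists of this size are near the background and are no result about them. The main sheddase ADAM17 averaged 67.1 ± 1.49 CPM in TYMP and 61.7 ± 0.00162 CPM in NC (log2 fold change 0.12, SE 0.0963). ADAM10, which releases BTC and EGF, was at 462.9 ± 11.3 CPM in TYMP and 455.2 ± 15.5 CPM in NC. TIMP3, an inhibitor of ADAM17, was at 35.5 ± 3.66 CPM in TYMP and 26.9 ± 1.80 CPM in NC (log2 fold change 0.40, adjusted p = 0.126). The list's median log2 fold change was 0.03, beside -0.01 over all tested genes. Of 27 tested genes of receptor trafficking and attenuation, 1 fell and 26 were not called, with a median of -0.07. The gene that fell was CAV1, the coat protein of caveolae, at 1013 ± 7.28 CPM in TYMP and 1252 ± 36.5 CPM in NC (log2 fold change -0.31, SE 0.0725, adjusted p = 0.0368). Its adjusted p was 0.239 without TYMP replicate 1, 0.156 without TYMP replicate 2 and 0.107 without NC replicate 2. The ubiquitin ligase CBL, which marks active EGFR for breakdown, was at 209.0 ± 3.11 CPM in TYMP and 211.3 ± 8.37 CPM in NC. Of 31 tested adaptor and kinase genes 0 were called, with a median of -0.02. These counts are with group as the only term. The replicate block called 14.1% of all tested genes, among them ADAM9, ADAM15, CNIH1 and TIMP3 of the shedding list. It also called CAV1, CDC37, PTPRK, RAB7A and STAM2 of the trafficking list, and AKT1, CRK, KSR1, NRAS and PTPN11 of the adaptor list.

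**Figure D5:**
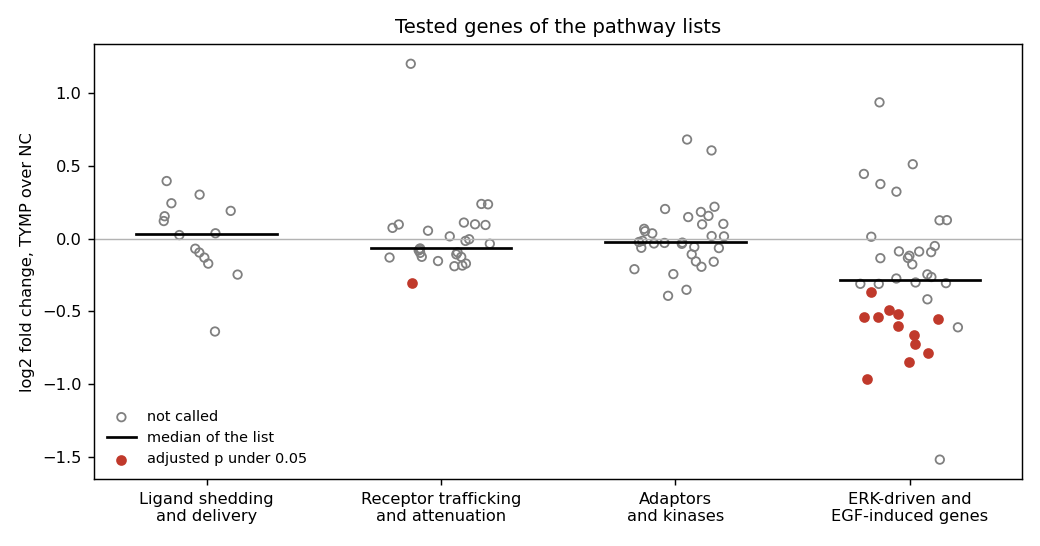
Log2 fold change, TYMP over NC, of the tested genes of 4 pathway lists. Filled points passed an adjusted p under 0.05 and lines are list medians. The last list has its median at -0.29 and 12 filled points, all below 0, while the other 3 have medians between -0.07 and 0.03 and 1 filled point together.

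Of 38 tested genes known to be induced by EGF or driven by ERK, 12 fell, 0 rose and 26 were not called, though JUNB was called higher in 7 of 12 alternatives, with a median log2 fold change of -0.29 beside -0.01 over all tested genes. Among all tested genes 1.23% were called lower. Some of these genes were known from earlier results of these data when the list was drawn up. The count and the adjusted p-values of the listed genes, here and in the next paragraph, are therefore a description and not independent tests. F3, which encodes tissue factor, fell to 412.2 ± 9.82 CPM in TYMP, against 653.8 ± 26.9 CPM in NC (adjusted p = 0.000332). FOSL1, an AP-1 subunit stabilized by ERK, fell to 59.9 ± 11.1 CPM in TYMP, against 116.9 ± 6.17 CPM in NC (adjusted p = 0.000517). DUSP4, a phosphatase that switches off ERK, fell to 58.1 ± 2.29 CPM in TYMP, against 96.2 ± 3.71 CPM in NC (adjusted p = 0.000912).

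ETV5, a transcription factor induced by ERK signalling, fell to 18.4 ± 1.24 CPM in TYMP, against 33.1 ± 1.15 CPM in NC (adjusted p = 0.00193). PHLDA1 fell to 83.0 ± 6.5 CPM in TYMP, against 143.3 ± 26.0 CPM in NC (adjusted p = 0.00199). The other 7 called genes, UPP1, VEGFA, DUSP6, TNFRSF12A, JUN, MYC and ETV4, were between 1.29-fold and 1.52-fold lower. The early-response genes EGR1 and FOS had log2 fold changes of 0.13 (SE 0.155) and 0.44 (SE 0.350). EGR3, another of them, had 4 and 9 reads in TYMP against 21 and 17 in NC (log2 fold change -1.52, SE 0.557) and was not called. JUNB was at 130.1 ± 18.9 CPM in TYMP and 100.3 ± 1.08 CPM in NC (adjusted p = 0.0732). JUNB was called higher in 7 of the 12 alternatives, among them upper quartile scaling, library totals only, no filter and the replicate block. It was also called higher without TYMP replicate 2, NC replicate 1 or NC replicate 2, and its adjusted p ran between 0.0032 and 0.644 over the alternatives. CCND1, which encodes cyclin D1, had a log2 fold change of -0.09 (SE 0.0801). IER3 had 0 reads in every library. The calls of F3, FOSL1, DUSP4, ETV5 and UPP1 were kept in all 12 alternatives, while ETV4 was called in 5 of them. JUN, MYC and TNFRSF12A were not called without TYMP replicate 2, nor ETV4 without TYMP replicate 2 or NC replicate 1.

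The genes whose pattern over the 4 libraries was most like that of AREG were THBS1, ANKRD1, IL1B, IL1A and IL1R2. Likeness was the Euclidean distance between centred log2(CPM + 1) profiles, between 0.198 for THBS1 and 0.291 for IL1R2, among the 10123 genes that averaged 5 CPM or more. THBS1 was at 843 and 817 CPM in the TYMP libraries, against 1781 and 1817 CPM in the NC libraries. With 4 libraries in 2 groups, such likeness rests mainly on the size and direction of the difference between the groups.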

How the data were processed

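RNA from HaCaT cells was sequenced in 4 libraries. Raw read counts per gene and FPKM are the authors' deposited values, per the file headers. HISAT2, HTSeq 0.13.5 and GRCh38 are named without roles in the submitters' processing notes. The 87668 deposited FPKM values above 0 each fitted a whole-number gene length within 0.001 bases, given the count and its library total. Counts were tested with edgeR 4.0.16 in R 4.3.3 (filterByExpr, TMM, robust quasi-likelihood F test, group as the only term, Benjamini-Hochberg over 14380 genes, threshold 0.05). Standard errors are the log2 fold change divided by the square root of F. An exact permutation of 2 against 2 libraries cannot go below p = 0.333. Alternatives used DESeq2 1.42.0, limma 3.58.1 on log2(FPKM + 1) or log2(FPKM + 0.1) for genes averaging 1 FPKM or more, other scalings and filters, a replicate block, and each library left out. The script was tested on data simulated from these libraries. Of its 125 calls there, 17 were false, more than the threshold allows. It recovered 42% of 1.5-fold changes and 66% of 2-fold changes. Any single call is therefore uncertain, those near the threshold among them, and so is the lack of a call.

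Members and lists were chosen with earlier results of these data known, so the adjusted p-values of listed genes are descriptive. Genes named were the members, the other family genes, TYMP, up to 5 called genes of each list by smallest p, and the 5 genes most like AREG. Neighbours on chromosome 4 were named by position, and further pathway genes for their role after their values were seen. Coordinates and exon overlaps are from GENCODE 29 on GRCh38, and upstream sequences from RefSeq on GRCh38.p14. Replicates were not duplicates, with a chi-square per degree of freedom of 5.84 for TYMP and 7.39 for NC.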

Additional observations from a re-analysis of the deposited data

How the results depend on the processing

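Of the 12 alternatives, the rise of TYMP kept its direction and call in all, with a log2 fold change between 1.9 and 2.21. With the replicate number as a block, 2024 genes, 7 of the 10 EGF receptor genes and 36 pathway and other family genes were called, against 478, 4 and 14 with group as the only term. By direction, the block called 1044 genes lower and 980 higher, against 177 and 301. It called 6 EGF receptor genes lower and 1, ERBB3, higher, against 4 and 0, and 29 pathway and other family genes lower and 7 higher, against 14 and 0. The labels give the numbers without saying that they pair libraries. Same-numbered libraries deviated from their group means with a correlation of 0.186 over genes, which with 2 pairs does not establish pairing. With no filter 732 genes were called. With limma on log2 FPKM, 215 genes (pseudocount 1) and 210 genes (pseudocount 0.1) were called, with 2 EGF receptor genes and 5 pathway genes in both, and BTC below the filter. The cause of these shifts was not tested. Leaving out 1 library gave between 393 and 716 genes, between 3 and 4 EGF receptor genes and between 11 and 18 pathway genes. The AREG share of ligand FPKM, TYMP minus NC, was -10.6 percentage points, between -11.5 and -9.66 with a library left out, and -5.22 as a share of raw counts, which takes no account of gene length. The TGFA share difference, 1.95 points, lay between 1.35 and 2.55 with a library left out and was -0.27 on raw counts.

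Among single genes, the log2 fold change of AREG lay between -1.39 and -1.25 and that of TGFA between -0.71 and -0.63 over all alternatives. BTC reversed without TYMP replicate 1 (-0.13) and NC replicate 1 (-0.11), within a range up to 0.26 with a library left out. ERBB4 reversed without TYMP replicate 2 (-0.54) and NC replicate 1 (-0.20), within a range up to 0.59. NRG2 was called only without NC replicate 1 (adjusted p = 0.0447), where the remaining NC library had 0 reads. The GENCODE 29 lengths (composition and level order), and the alternatives for neuregulins, ERBB4 and named pathway genes, were added after seeing the data. Read numbers limit BTC, EPGN, ERBB4 and NRG2, and EGF and NRG3 had too few reads to test.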
